A study of Mus musculus with 9 samples.

Results

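The Hox cluster genes were read in epithelial cells sorted from C57BL/6 mice, across small intestine and kidney. Members were all non-control probes on the array whose gene name was Hox with a cluster letter a to d and a number, which gave 38 genes and 50 probes among 28478 gene names. Each gene had 1 value, from the probe with the highest mean level over the 9 arrays: 26 genes had a single probe and 12 had several. Of the members, 11 belonged to the Hoxa cluster, 10 to Hoxb, 8 to Hoxc and 9 to Hoxd. Hoxc11 was not analysed here.

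There were 3 groups of 3 arrays, and none carried a transgene or a treatment in the labels. MHCIIhi were small intestinal cells with high surface Epcam and high MHC class II, and MHCIIlo were those with intermediate levels of both. Both were freed with EDTA. Kidney cells were freed with collagenase, dispase and DNase and sorted as positive for Epcam, an epithelial adhesion molecule, with no MHC class II gate. All 3 gates left out cells staining for CD45, a leukocyte protein, or for Fluorogold, a dye used here to mark dead cells. An intestinal replicate pooled cells of 3 mice and a kidney replicate cells of 4 mice. Position along the small intestine and along the nephron, and the age of the mice, are not given in the labels.

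Hox genes encode transcription factors with a homeodomain, the DNA-binding part written by a stretch of sequence called the homeobox. In mammals they lie in 4 clusters, and genes at the same place in different clusters are paralogues and share a number. In the embryo, low numbers are switched on early and towards the head and high numbers late and towards the tail, an order called colinearity. Polycomb complexes keep the clusters silent and MLL (trithorax) complexes keep them active, retinoic acid induces the low-numbered genes, Cdx factors act upstream of the middle and posterior genes, and Pbx and Meis proteins bind DNA beside Hox proteins. In the kidney, Hox genes with the number 11 are needed for the metanephros to form, and Hoxb7 is active in the ureteric bud and the collecting duct that grows from it.

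The homeobox is alike between members, so the probes were read for sequence they share. Each probe is 60 bases long, and 10 of the 50, in 10 genes, were taken as lying in the homeobox. In these the translated probe held a peptide from a short list of homeodomain peptides. Such a probe may run past the homeobox, and a probe over an unlisted part of it would be counted as outside. The longest run shared with another Hox probe was 11 bases for the probes outside the homeobox and 22 bases for those in it. Probes were compared with each other and not with whole Hox transcripts. These runs therefore do not show whether a probe could bind the transcript of another member. The Hoxd9 and Hoxd10 probes lay in the homeobox, at chr2:74500115-74500174 and chr2:74495062-74495121 on the plus strand (mm8). The longest run they shared with another Hox probe was 8 bases with Hoxa13 for Hoxd9 and 14 with Hoxa9 for Hoxd10, as the capitals show. The Hoxd9 probe is printed because it differed from the other probe of its gene in the intestine, as described with the probe pairs. The Hoxd10 probe, the only one of its gene, is printed beside it.
Hoxd9: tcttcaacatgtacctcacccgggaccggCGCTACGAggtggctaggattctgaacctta
Hoxd10: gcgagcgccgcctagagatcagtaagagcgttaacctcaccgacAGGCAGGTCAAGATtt

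A level here is the log2 processed signal with the 75th percentile of its array taken off, so a level of 0 lies at that percentile and a difference of 1 is a doubling. Levels were compared for the same probe between arrays, never between probes. On the MHCIIlo arrays 51.0% to 57.3% of spots were well above background by the scanner's own test, on the MHCIIhi arrays 60.9% to 64.7%, and on the kidney arrays 71.2% to 73.2%. The dimmest level that passed on an array ranged from -3.43 on MHCIIlo 3 to -6.11 on kidney 3, so a dim transcript could be seen in kidney and missed in MHCIIlo. The 3 kidney arrays lay on a slide of their own, so kidney and slide cannot be told apart. MHCIIhi 1 and 2 lay on another slide, and MHCIIhi 3 shared a slide with the 3 MHCIIlo arrays.

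The sorted cells carried the markers of their labels, with those of other cell types beside them. All 5 pan-epithelial markers, Epcam among them, were above background on all 9 arrays, and 4 were lower in kidney. The 9 intestinal epithelial markers were above background on all 6 intestinal arrays, and 9 of 9 were lower in kidney. Vil1, Lgals4, Gpa33, Krt20 and Fabp2 also passed on all 3 kidney arrays. All 9 kidney epithelial and all 10 collecting duct markers were above background on the 3 kidney arrays, and 8 and 10 of them were called higher there. Pax8, Emx1, Aqp2, Aqp3 and Tfcp2l1 also passed on all 6 intestinal arrays, and the others on some or none of them. Of 4 podocyte markers tested 3 were higher and 1 lower in kidney. Of 3 enteric neuron and glia markers tested 1 was higher and 1 lower. The 8 endothelial markers were all higher in kidney, with a summed level of 5.09 to 6.35 there and -1.78 to -0.79 on the intestinal arrays. On the intestinal arrays Pecam1, Cdh5, Kdr and Emcn were above background on 0 arrays. Plvap passed on all 3 arrays of both intestinal groups, Esam and Tie1 on 3 MHCIIhi and 2 MHCIIlo arrays, and Tek on 1 array of each. Of 12 fibroblast and smooth muscle markers, 10 were tested, 4 were higher and 1 lower in kidney. Their summed level was 4.56 to 5.26 in kidney, 4.90 to 5.11 in MHCIIhi and 5.71 to 6.23 in MHCIIlo. Col1a2, Dcn, Pdgfrb, Acta2, Myh11, Tagln and Vim were above background on all 9 arrays. Col1a1, Col3a1 and Des passed on all 3 kidney arrays, Lum on 1 kidney array and Pdgfra on 0 of 9 arrays. Leukocyte markers were above background too, although the gates left out cells staining for CD45. T lymphocyte markers had a summed level of 1.94 to 2.25 in MHCIIhi, 2.76 to 3.46 in MHCIIlo and 1.30 to 1.57 in kidney, and of 10 tested 1 was higher and 6 lower in kidney. The 7 B and plasma cell markers summed to 0.13 to 1.12 in MHCIIhi, 4.44 to 5.18 in MHCIIlo and -1.31 to -0.78 in kidney, and all 7 were lower in kidney. The 9 macrophage and dendritic cell markers summed to 6.63 to 7.44, 3.97 to 5.68 and 1.14 to 2.49 in the same order of groups. Of 7 tested 1 was higher and 5 lower in kidney. Each summed level adds the linear signals of different probes, so its brightest markers weigh most. Cd3d, Cd3g, Gzma, Ms4a1, Itgax and Itgam were above background on 0 kidney arrays, Adgre1 on 0 MHCIIhi arrays and C1qa on 0 MHCIIlo arrays. The part of these cells in the Hox levels was not tested, and in sorted bulk RNA fewer cells of a type and less RNA per cell cannot be told apart.

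Many more Hox genes were seen in kidney than in intestine. On single arrays 30 or 31 of the 38 members were well above background in kidney, 17 or 18 in MHCIIhi and 11 or 12 in MHCIIlo. On all 3 arrays of a group, 29 members passed in kidney, 15 in MHCIIhi and 11 in MHCIIlo. The 11 seen on all 9 arrays were Hoxa3, Hoxa7, Hoxa9, Hoxb3, Hoxb4, Hoxb5, Hoxb6, Hoxb7, Hoxb9, Hoxc4 and Hoxd9. Other members passed on all 3 kidney arrays and on 0 intestinal arrays, among them Hoxa5, Hoxa10, Hoxa11, Hoxc8, Hoxc9, Hoxd3, Hoxd8 and Hoxd10. The share of all genes above background was higher in the same order, from 51.1% to 57.0% in MHCIIlo and 59.5% to 63.7% in MHCIIhi to 69.4% to 71.3% in kidney.

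Detection differed with the cluster and the paralogue number. All 8 Hoxb members from Hoxb2 to Hoxb9 passed on the 3 MHCIIhi arrays, against 4 of 11 Hoxa, 1 of 8 Hoxc and 2 of 9 Hoxd members. In kidney, all 15 members numbered 4 to 8 and all 7 numbered 9 or 10 passed on 3 arrays. Of the 8 members numbered 11 to 13, Hoxa11 alone did so. Hoxd1 and Hoxd11 passed on 2 of 3 kidney arrays and on no intestinal array. Hoxa13, the gene of hindgut and limb tip, was the reverse: it passed on MHCIIhi 1 and 3, at -4.66 and -3.99, and on 0 of 3 kidney arrays, where it read -7.20 to -8.33. Another Hoxa13 probe passed on no array. Hoxb1, Hoxb13, Hoxc12, Hoxc13, Hoxd12 and Hoxd13 passed on none of the 9 arrays. These 9 members were left out of the tests.

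**Figure D1:**
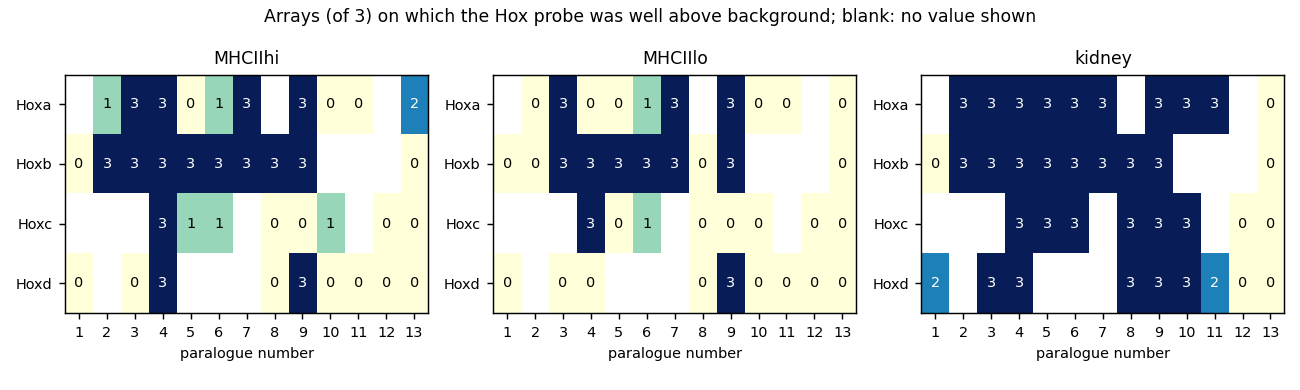
Number of arrays, of 3, on which the probe of Hox genes was well above background, by cluster (rows) and paralogue number (columns) in each group; blank cells have no value shown. The Hoxb row is filled from Hoxb2 to Hoxb9 in MHCIIhi and in kidney, and columns 12 and 13 hold 0 in kidney.

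The tissue comparison set kidney against the mean of the intestinal groups. Of the 29 members tested, 26 were higher in kidney and 0 lower at a limma adjusted p below 0.05 and a log2 difference of at least 1, beside 27.4% of the 19993 genes tested called higher and 24.8% called lower. At an unadjusted p below 0.05 in limma the count lower was also 0. In 26 members every kidney array was above every intestinal array, beside 30.1% of genes, and in 0 members was every one below, beside 27.8%. Since members could pass the filter through kidney alone, the 11 measured on all 9 arrays are the fairer count: 9 were higher and 0 lower, beside 15.3% and 28.8% of the 13493 genes measured on all 9. Their median difference was 2.42, against -0.30 over those genes. Against each intestinal group alone, 26 members were again higher and 0 lower, beside 25.6% of genes higher and 22.8% lower against MHCIIhi, and 29.8% higher and 27.8% lower against MHCIIlo. These comparisons share their kidney arrays. Where an intestinal group had no array, or only some, above background, the fold is a bound. It sets the kidney mean against the mean, over intestinal arrays, of the higher of the array's dimmest passing level and the probe's own level. A limma adjusted p printed beside any bound belongs to the difference of the levels as read, those below background included. It does not test the bound.

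**Figure D2:**
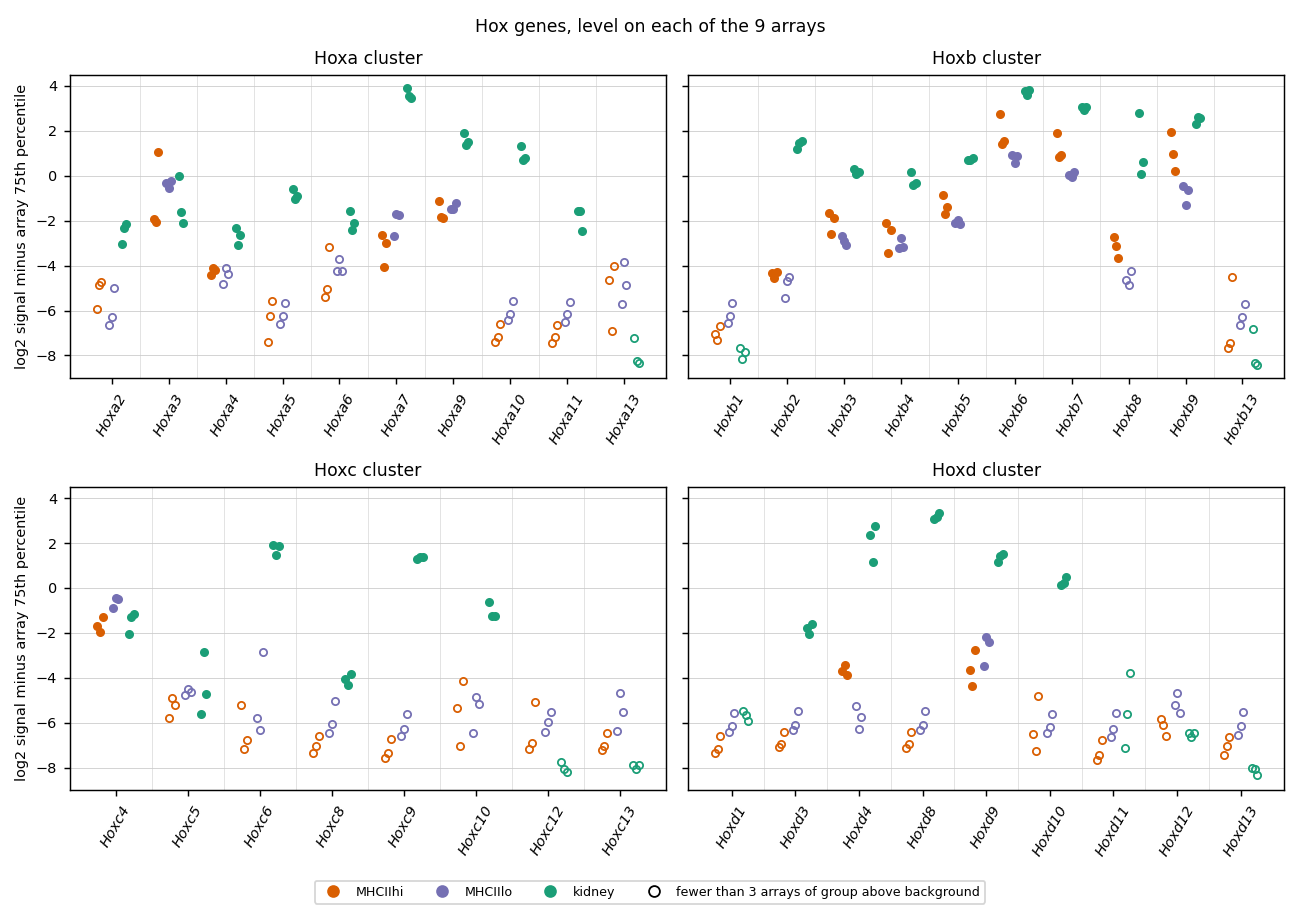
Level (log2 signal minus array 75th percentile) of Hox genes on each of the 9 arrays, by cluster; points are arrays, and open points mark groups in which fewer than 3 arrays were above background. Levels are to be compared within a gene: in all genes tested but Hoxa3, Hoxc4 and Hoxc5 the 3 kidney points lie above the 6 intestinal points.

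In the Hoxa cluster 9 of 10 members tested were higher in kidney, beside 27.4% of all genes. Hoxa3, Hoxa7 and Hoxa9 were measured on all 9 arrays, and Hoxa4 passed on all 3 MHCIIhi arrays. The others passed the filter through kidney alone. Hoxa7, a middle gene of the cluster, read 3.90, 3.57 and 3.47 on the kidney arrays, -2.64, -4.05 and -3.00 on the MHCIIhi arrays and -2.66, -1.69 and -1.74 on the MHCIIlo arrays. All 9 arrays were above background, and kidney stood far from both intestinal groups. The difference was 6.28 ± 0.34 (SE), a 77.5-fold difference, with a limma adjusted p of 5.2e-07. Hoxa9, which also acts in blood stem cells, read 1.90, 1.39 and 1.50 in kidney, -1.13, -1.85 and -1.88 in MHCIIhi and -1.49, -1.48 and -1.21 in MHCIIlo. The intestinal groups overlapped and kidney lay above both, by 3.10 ± 0.21 (SE; limma adjusted p = 2.2e-06), through a probe in the homeobox.

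Hoxa10 and Hoxa11, posterior genes of the cluster, passed the background test on all 3 kidney arrays and on no intestinal one. Hoxa10 read 1.33, 0.71 and 0.78 in kidney and between -7.38 and -5.57 in intestine, where no array passed the background test. The bound put it at least 43.0-fold higher in kidney (limma adjusted p = 4.2e-08). Hoxa11, a gene that kidney formation depends on together with its paralogues, read -1.58, -1.59 and -2.45 in kidney and -7.46 to -5.62 in intestine. It was at least 6.12-fold higher in kidney (limma adjusted p = 1.1e-06). Normexp background correction pulls dim values together, here with a constant of 50 added to every signal. With it Hoxa11 differed by 0.49 and was not called (limma adjusted p = 0.058). Hoxa5, known for its role in lung and gut development, read -0.60, -1.04 and -0.88 in kidney against -7.38 to -5.55, and was at least 12.5-fold higher (limma adjusted p = 2.3e-06). For these 3 genes every intestinal array was below background, so the intestinal level is known only as a limit.

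The anterior Hoxa genes were dimmer. Hoxa2, a gene of hindbrain patterning, read -3.05, -2.34 and -2.14 in kidney and -6.64 to -4.74 in intestine, with 1 intestinal array above background and a difference of 3.07 ± 0.42 (SE). Hoxa4 read -2.32, -3.08 and -2.62 in kidney, -4.42, -4.09 and -4.21 in MHCIIhi and -4.80, -4.11 and -4.39 in MHCIIlo, a difference of 1.66 ± 0.22 (SE). Hoxa6 read -1.57, -2.43 and -2.12 in kidney and -5.41 to -3.17 in intestine, a difference of 2.26 ± 0.46 (SE). All 3 were higher in kidney on every array and were called, with limma adjusted p of at most 0.0018. With the limit in place of levels under it, Hoxa2, Hoxa4 and Hoxa6 were at least 3.82-fold, 2.66-fold and 4.35-fold higher. With normexp the differences of Hoxa2 and Hoxa4 were -0.021 and -0.28, so the direction of these dim genes is not settled by the arrays, and Hoxa6 differed by 0.14 and was not called (limma adjusted p = 0.588).

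Hoxa3, a gene of the pharyngeal organs, stood apart within its cluster. Its brighter probe read -0.03, -1.62 and -2.12 in kidney, -1.92, -2.08 and 1.04 in MHCIIhi and -0.31, -0.55 and -0.24 in MHCIIlo. All 3 groups overlapped, and the difference of -0.58 ± 0.71 (SE) did not pass (limma adjusted p = 0.485). Its other probe read -2.59, -3.24 and -3.07 in kidney and -7.08 to -5.27 in intestine, with 0 intestinal arrays above background and a difference of 3.09 ± 0.38 (SE; limma adjusted p = 7.5e-05). The probes of Hoxa3 thus gave different answers.

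All 8 Hoxb members tested were higher in kidney, beside 27.4% of all genes, and 6 of them were also measured on every intestinal array. Hoxb7, the ureteric bud gene, read 3.07, 2.94 and 3.08 in kidney, 1.89, 0.84 and 0.91 in MHCIIhi and 0.06, -0.04 and 0.18 in MHCIIlo. The 3 groups did not overlap. The difference between kidney and intestine was 2.39 ± 0.23 (SE; limma adjusted p = 2.0e-05), a 5.24-fold difference. Hoxb6 read 3.77, 3.62 and 3.81 in kidney, 2.76, 1.43 and 1.56 in MHCIIhi and 0.92, 0.57 and 0.88 in MHCIIlo, in the same order with no overlap, and differed by 2.38 ± 0.28 (SE) between the tissues. Hoxb9 read 2.29, 2.61 and 2.55 in kidney, 1.96, 0.97 and 0.23 in MHCIIhi and -0.44, -1.30 and -0.64 in MHCIIlo, again in that order, with a difference of 2.36 ± 0.36 (SE).

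Hoxb3, Hoxb4 and Hoxb5 had the same order of kidney above intestine. Hoxb3 read 0.28, 0.09 and 0.17 in kidney, -1.65, -2.58 and -1.90 in MHCIIhi and -2.66, -2.91 and -3.09 in MHCIIlo. Hoxb4, known for the self-renewal of blood stem cells, read 0.17, -0.39 and -0.34 in kidney, -2.11, -3.44 and -2.39 in MHCIIhi and -3.21, -2.77 and -3.16 in MHCIIlo. Hoxb5, which acts in enteric nerve development, read 0.72, 0.69 and 0.78 in kidney, -0.87, -1.69 and -1.37 in MHCIIhi and -2.09, -1.98 and -2.13 in MHCIIlo. No kidney array overlapped an intestinal one in these genes, and only in Hoxb4 did the intestinal groups overlap. The differences between kidney and intestine were 2.65, 2.66 and 2.42, so the 6 Hoxb genes measured on every array differed by 2.36 to 2.66.

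The other Hoxb genes differed by more. Hoxb2, a hindbrain gene at the anterior end, read 1.19, 1.46 and 1.54 in kidney, -4.31, -4.55 and -4.29 in MHCIIhi and -5.43, -4.71 and -4.52 in MHCIIlo, a difference of 6.03 ± 0.22 (SE; limma adjusted p = 4.8e-08). Hoxb8 read 2.80, 0.08 and 0.60 in kidney, -2.74, -3.11 and -3.66 in MHCIIhi and -4.63, -4.86 and -4.24 in MHCIIlo, a difference of 5.03 ± 0.54 (SE; limma adjusted p = 3.3e-05). Kidney 1 was well above the other kidney arrays for Hoxb8, and all 3 kidney arrays were above every intestinal one. Neither gene was above background on any MHCIIlo array, and with the limit in place of levels under it they were at least 47.0-fold and 26.2-fold higher in kidney.

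In the Hoxc cluster 4 of 6 members tested were higher in kidney, beside 27.4% of all genes. All members tested but Hoxc4 passed the filter through kidney alone. Hoxc9 read 1.28, 1.39 and 1.37 in kidney and -7.58 to -5.61 in intestine, with no intestinal array above background, and was at least 57.1-fold higher (limma adjusted p = 2.5e-08). Hoxc6 read 1.91, 1.48 and 1.84 in kidney, -5.23, -7.17 and -6.77 in MHCIIhi and -5.78, -6.33 and -2.85 in MHCIIlo, where MHCIIhi 1 and MHCIIlo 3 passed, and differed by 7.44 ± 0.73 (SE; limma adjusted p = 2.1e-05). Hoxc10 read -0.62, -1.27 and -1.24 in kidney, -5.33, -7.05 and -4.14 in MHCIIhi and -6.47, -4.86 and -5.17 in MHCIIlo, a difference of 4.46 ± 0.60 (SE; limma adjusted p = 0.00015). Kidney was above intestine on every array in all 3, and with the limit in place of levels under it Hoxc6 and Hoxc10 were at least 69.2-fold and 10.3-fold higher. Hoxc8 was dim in kidney, at -4.07, -4.32 and -3.83, below background in intestine and at least 1.33-fold higher. With normexp it was lower in kidney, by -0.80, beside a median of -0.47 over all genes.

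Hoxc4 and Hoxc5, which lie next to each other at the anterior end of the mouse cluster, were not called. Hoxc4 read -2.05, -1.29 and -1.18 in kidney, -1.68, -1.94 and -1.28 in MHCIIhi and -0.90, -0.47 and -0.48 in MHCIIlo. Kidney overlapped MHCIIhi and lay below MHCIIlo, and the difference from intestine was -0.38 ± 0.24 (SE; limma adjusted p = 0.188). Hoxc5 read -5.63, -2.85 and -4.74 in kidney, -5.79, -4.90 and -5.20 in MHCIIhi and -4.79, -4.49 and -4.64 in MHCIIlo. Kidney overlapped both intestinal groups, and every MHCIIhi array was below every MHCIIlo array. Only 1 of 6 intestinal arrays was above background. The difference from intestine was 0.56 ± 0.52 (SE, limma adjusted p = 0.353). With normexp it had the opposite sign, at -0.93 (limma adjusted p = 0.0031), under the size threshold.

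All 5 Hoxd members tested were higher in kidney, beside 27.4% of all genes. Of these, Hoxd3, Hoxd8 and Hoxd10 passed the filter through kidney alone. Hoxd8 read 3.09, 3.17 and 3.36 in kidney and -7.11, -6.97 and -6.43 in MHCIIhi and -6.33, -6.12 and -5.47 in MHCIIlo, with every intestinal array below background. The kidney mean was at least 207-fold above the intestinal limit (limma adjusted p = 6.7e-09), the largest bound among the members. Such bounds hold for the processed signal only. With normexp the log2 differences were 5.07 for Hoxd8 and 3.00 for Hoxa10, under their log2 bounds of 7.69 and 5.42, and both were still called. Hoxd10 read 0.13, 0.22 and 0.49 in kidney and -7.24 to -4.83 in intestine, and was at least 27.3-fold higher (limma adjusted p = 2.8e-06). Hoxd3 read -1.77, -2.06 and -1.60 in kidney and -7.07 to -5.47 in intestine, and was at least 6.40-fold higher (limma adjusted p = 4.2e-07). With normexp Hoxd3 differed by 0.49, under the size threshold.

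Hoxd4 and Hoxd9 had some intestinal signal. Hoxd4, a gene induced by retinoic acid, read 2.34, 1.14 and 2.76 in kidney, -3.68, -3.41 and -3.89 in MHCIIhi and -5.27, -6.29 and -5.73 in MHCIIlo, a difference of 6.79 ± 0.36 (SE; limma adjusted p = 4.7e-07). Hoxd9 read 1.13, 1.42 and 1.53 in kidney, -3.66, -4.36 and -2.75 in MHCIIhi and -3.49, -2.19 and -2.41 in MHCIIlo, a difference of 4.50 ± 0.38 (SE; limma adjusted p = 8.4e-06). Kidney stood clear of intestine in both; the intestinal groups overlapped for Hoxd9 and were apart for Hoxd4, which passed on all 3 MHCIIhi and 0 MHCIIlo arrays and was at least 58.8-fold higher in kidney.

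**Figure D3:**
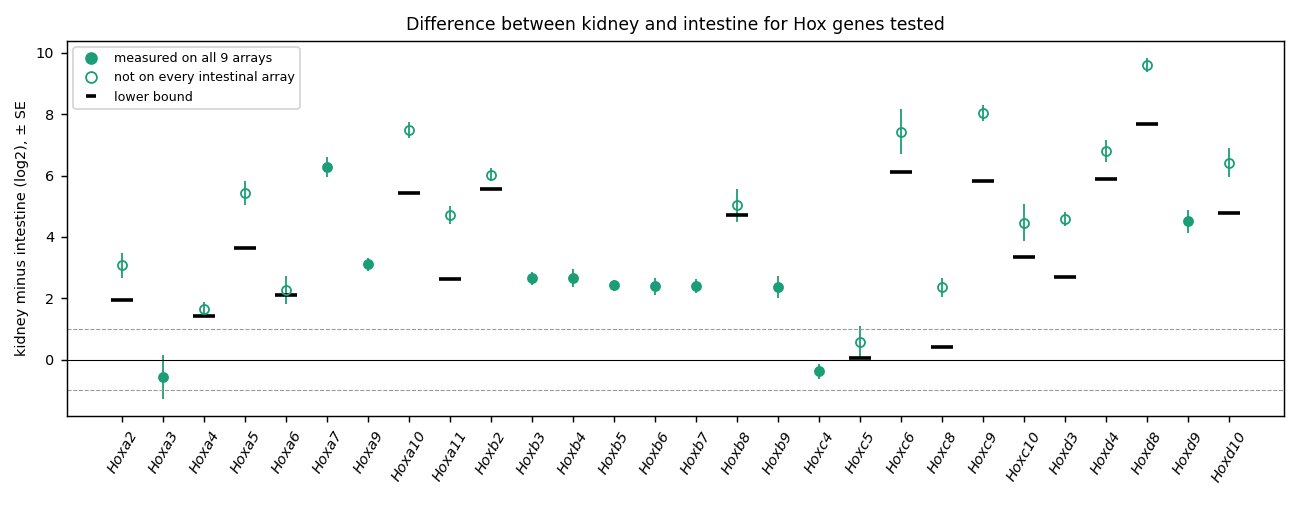
Difference between kidney and the mean of the intestinal groups (log2, ± SE) for Hox genes tested; filled points were measured on all 9 arrays, black bars are lower bounds and dashed lines mark a log2 difference of 1. Hoxa3 and Hoxc4 lie below 0, and the 6 filled Hoxb points lie between 2.36 and 2.66.

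The promoters of Hoxd8 and Hoxd10 are shown because both genes passed the background test on all 3 kidney arrays and on no intestinal one. RefSeq promoters (GRCm38.p6) were matched for 22 members, 24 promoters in all, and the 250 bases before the start site were read. Capitals mark CG pairs, the sites of DNA methylation, of which Hoxd8 had 6 at chr2:74704365-74704614 and Hoxd10 had 20 at chr2:74691641-74691890, both on the plus strand.
Hoxd8: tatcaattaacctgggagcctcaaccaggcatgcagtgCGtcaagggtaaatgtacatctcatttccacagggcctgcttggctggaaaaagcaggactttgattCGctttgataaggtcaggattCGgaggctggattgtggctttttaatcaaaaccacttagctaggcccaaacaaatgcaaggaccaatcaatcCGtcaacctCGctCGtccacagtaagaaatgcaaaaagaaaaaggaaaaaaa
Hoxd10: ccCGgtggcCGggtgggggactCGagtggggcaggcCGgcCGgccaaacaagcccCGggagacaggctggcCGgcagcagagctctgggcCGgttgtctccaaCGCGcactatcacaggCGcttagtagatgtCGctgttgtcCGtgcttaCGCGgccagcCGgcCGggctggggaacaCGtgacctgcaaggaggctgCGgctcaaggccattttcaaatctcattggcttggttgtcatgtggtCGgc
The median over the 24 Hox promoters was 12.5 CG pairs and 58.6% G and C, against 6 and 52.4% over all 32851 promoters. On either strand, the Cdx-type motif TTTATGG was in 1 of 24 (4.17%, Hoxd4) against 2.43% of all promoters. The Pbx-Hox motif TGATTGAT was in 2 (8.33%, in Hoxa2 and Hoxd11) against 0.67%, and its posterior form TGATTTAT in 0 against 0.837%. The Meis motif TGACAG was in 2 (8.33%, in Hoxa2 and Hoxa3) against 15.9%. No motif contains another, and none of the 4 was found in the printed pair.

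The gate comparison set MHCIIhi against MHCIIlo. Of 29 members tested, 4 were called higher in MHCIIhi, Hoxb6, Hoxb7, Hoxb9 and Hoxd4, beside 14.9% of all genes. Another 6 were called lower, beside 16.1%, but of these only Hoxa7 and Hoxc4 had signal above background in the intestine. Hoxa10, Hoxa11, Hoxc8 and Hoxc9 were below background on all 6 intestinal arrays; of the 1901 genes in that state 22.7% were called lower and 0.0526% higher, so these 4 calls set unmeasured values side by side. Among the 11 members measured on all 9 arrays, 3 were higher and 2 lower, beside 12.7% and 16.5% of genes so measured. With slide as a random block 3 members were higher and 0 lower: Hoxb6 was no longer called (1.02, limma adjusted p = 0.055), and Hoxb7, Hoxb9 and Hoxd4 were.

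Most Hoxb genes had higher levels in MHCIIhi with the processed signal. The 6 measured on all 9 arrays, Hoxb3, Hoxb4, Hoxb5, Hoxb6, Hoxb7 and Hoxb9, differed by 0.40 to 1.85. In Hoxb3, Hoxb5, Hoxb6, Hoxb7, Hoxb8 and Hoxb9 every MHCIIhi array was above every MHCIIlo array, beside 23.7% of genes, and in 0 of the 8 Hoxb genes tested every one was below, beside 32.7%. Hoxb9 differed by 1.85 ± 0.41 (SE; limma adjusted p = 0.0078), a 3.59-fold difference, from a mean of 1.05 ± 0.87 (SD, n = 3) in MHCIIhi and -0.80 ± 0.45 (SD, n = 3) in MHCIIlo. Hoxb7 differed by 1.15 ± 0.27 (SE; limma adjusted p = 0.0098) and Hoxb6 by 1.12 ± 0.33 (SE; limma adjusted p = 0.021). Hoxb3 at 0.84 and Hoxb5 at 0.76 had limma adjusted p of 0.023 and 0.019 but were under the size threshold. Hoxb4 at 0.40 did not pass. Hoxb8 and Hoxb2 were above background on 0 MHCIIlo arrays and were not called. Hoxb8 was at least 1.69-fold higher in MHCIIhi (limma adjusted p = 0.086), and for Hoxb2 the MHCIIhi mean lay below the MHCIIlo limit, so no direction is given. The direction turned with the background correction in several Hoxb genes. With normexp Hoxb6, Hoxb7 and Hoxb9 were still called higher, at 1.22, 1.09 and 1.44, and Hoxb5 differed by 0.061. Hoxb2, Hoxb3, Hoxb4 and Hoxb8 were below 0 with it, at -0.70, -0.22, -0.36 and -0.37. The median of all genes also fell with normexp, from -0.24 to -0.50. Hoxb3, Hoxb4 and Hoxb8 lay above that median and Hoxb2 below it.

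The gate differences leaned on single arrays and on the slide. MHCIIhi 1 was the brightest intestinal array for Hoxb6, Hoxb7 and Hoxb9; without it Hoxb6 and Hoxb7 differed by 0.70 and 0.81 and fell under the size threshold. Within the shared slide, which holds MHCIIhi 3 and the 3 MHCIIlo arrays, the differences were 1.02 for Hoxb9, 0.84 for Hoxb7, 0.77 for Hoxb6 and 0.99 for Hoxb3, with limma adjusted p of 0.18, 0.18, 0.30 and 0.12, and no member was called. There, MHCIIhi is a single array, assumed to vary as the other groups do, so a missed threshold does not show that the groups were alike. Hoxb8 passed with kidney 1, its brightest array, left out of the fit (limma adjusted p = 0.0088), and Hoxb3 passed without MHCIIhi 2, at 1.11. Without MHCIIhi 3, Hoxa3 at -1.63, Hoxa6 (above background on 2 of 6 intestinal arrays) at -1.16 and Hoxd9 at -1.31 passed as lower in MHCIIhi, and Hoxd9 also without MHCIIlo 1, at -1.29. The part of the slide in the gate difference was not tested beyond this.

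Hoxd4 was the other gene higher in MHCIIhi, by 2.10 ± 0.42 (SE; limma adjusted p = 0.0050), and at least 1.21-fold as a bound because no MHCIIlo array was above background. With normexp the difference was -0.44, beside a median of -0.50 over all genes. Hoxa7 was lower in MHCIIhi by 1.20 on the log2 scale (-1.20 ± 0.39 SE; limma adjusted p = 0.032), with overlapping groups: MHCIIlo 1 at -2.66 fell beside MHCIIhi 1 at -2.64. Hoxc4 was lower by -1.02 ± 0.28 (SE; limma adjusted p = 0.017) with no overlap. Within the shared slide Hoxa7 differed by -0.97 and Hoxc4 by -0.67, neither past the threshold. With slide as a random block neither was called: Hoxa7 had a limma adjusted p of 0.071 and Hoxc4 differed by -0.92, under the size threshold. With normexp both were under it, at -0.90 and -0.80. Hoxa7 was also not called with the replicate number as a block (limma adjusted p = 0.055) or with the arrays of the comparison alone (limma adjusted p = 0.067). Leaving out MHCIIhi 2, MHCIIlo 2 or MHCIIlo 3 ended the call of both genes, and leaving out MHCIIhi 1 also ended that of Hoxc4, with limma adjusted p of 0.053 to 0.103.

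**Figure D4:**
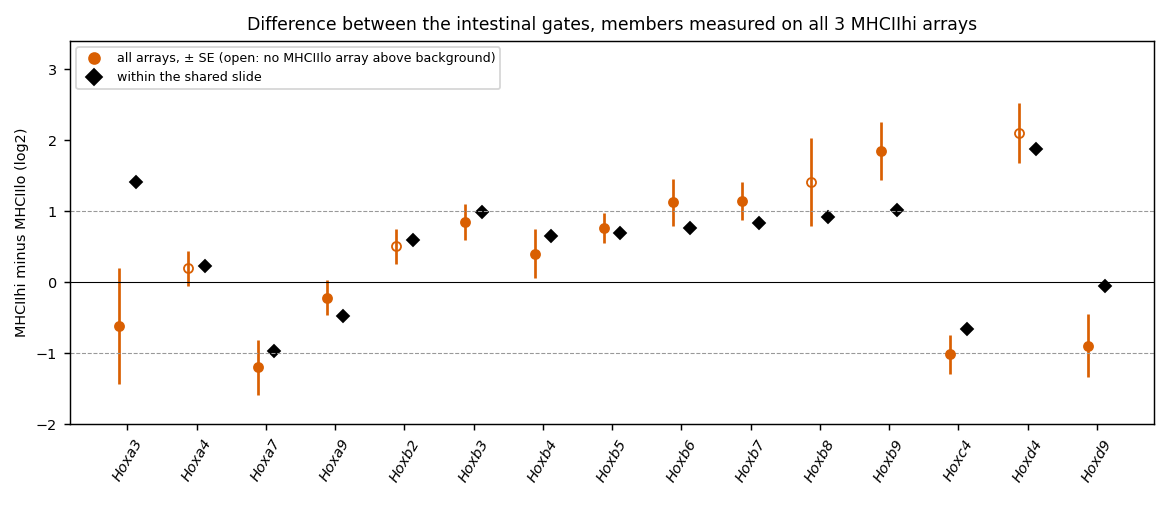
Difference between MHCIIhi and MHCIIlo (log2) for the 15 Hox genes above background on all 3 MHCIIhi arrays; circles are all arrays with ± SE, open where no MHCIIlo array passed, diamonds are the value within the shared slide and dashed lines mark a log2 difference of 1. The 8 Hoxb circles and diamonds lie above 0, those of Hoxb2 and Hoxb8 against MHCIIlo levels not above background, and Hoxa3 changes sign within the slide.

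The marker lists moved between the gates as well. The 8 dividing cell markers were all higher in MHCIIhi, with a summed level of 5.78 to 6.72 against 3.17 to 4.09 in MHCIIlo, and 5 of the 10 fibroblast markers tested were lower in MHCIIhi and 0 higher. Of the 9 intestinal epithelial markers 5 were lower and 1 higher in MHCIIhi. Of the leukocyte markers whose levels are given above, 1 of 10 T lymphocyte markers tested was higher in MHCIIhi and 6 lower, 0 of 7 B and plasma cell markers higher and 3 lower, and 1 of 7 macrophage and dendritic cell markers higher and 3 lower. The summed level of the macrophage and dendritic cell markers was higher in MHCIIhi, although more of them were called lower there than higher. The part of all these lists in the Hoxb differences was not tested.

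Several genes could be read with another probe. Another probe was tested for 10 members, and 9 of these were higher in kidney with it, the exception being the homeobox probe of Hoxa4 at 0.35 (limma adjusted p = 0.55). The Hoxd9 probes parted in detection: the homeobox probe passed on all 6 intestinal arrays, with a difference of 4.50, and the other, which read 2.26, 2.74 and 2.76 in kidney, passed on none of them, so its difference of 8.85 is against intestinal levels that were not measured. For Hoxb2 the other probe gave 2.25, and its sequence lies on the strand opposite to the gene. The other Hoxb9 probe gave 2.09 against the intestinal mean. Against MHCIIhi alone it gave 1.24 and was not called (limma adjusted p = 0.17), with kidney 2 at 0.40 below every MHCIIhi array. Between the gates the Hoxb6 probes had opposite signs. The other one read -0.40, -0.62 and 0.07 in MHCIIhi and 0.25, 1.25 and 0.92 in MHCIIlo, lower in MHCIIhi by -1.12 ± 0.28 (SE; limma adjusted p = 0.012) against 1.12 with the brighter probe. The direction of Hoxb6 between the gates therefore depends on the probe. The other probe also gave the opposite sign for Hoxb8, at -0.98 (limma adjusted p = 0.137), for Hoxb2, at -0.036, and for Hoxa4, at -0.16 against 0.19, none of them called. For Hoxb3 both probes were higher in MHCIIhi, by 0.84 and 1.16, and for Hoxb9 by 1.85 and 1.70, the last with a limma adjusted p of 0.085.

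**Figure D5:**
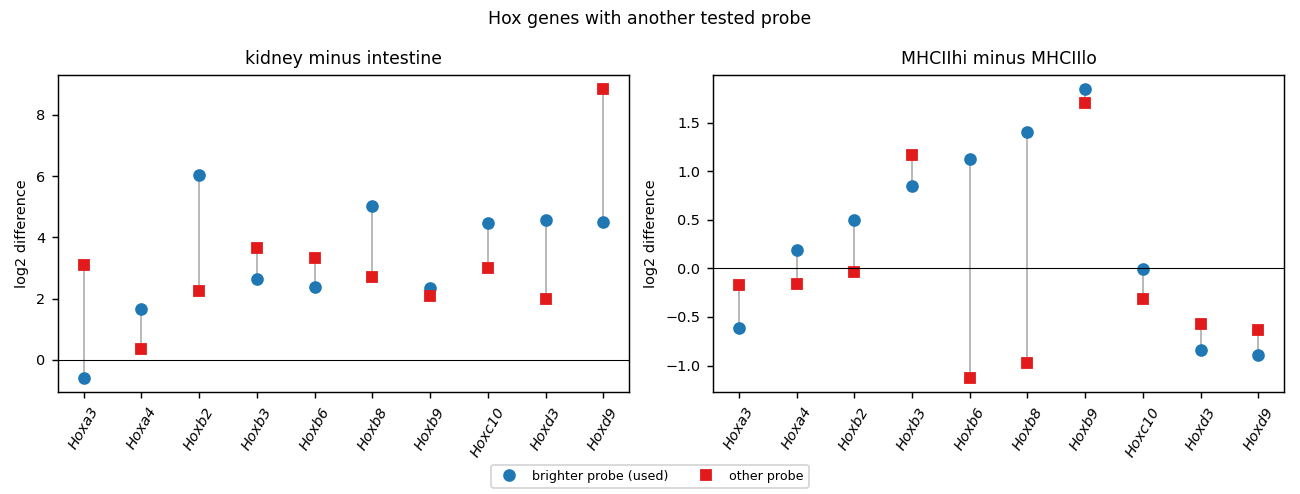
Log2 difference given by the brighter probe (circles, used for the gene) and the other probe (squares) of the 10 Hox genes with another tested probe, for kidney minus intestine and for MHCIIhi minus MHCIIlo. Hoxa3 parts in sign on the left, and Hoxa4, Hoxb2, Hoxb6 and Hoxb8 part in sign on the right.

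The Cdx genes were lower in kidney, where most Hox genes tested were higher. Cdx1 and Cdx2, intestinal homeobox genes of the ParaHox family, were not above background on any kidney array. Cdx1 averaged 1.88 ± 0.22 (SD, n = 3) in MHCIIhi and 1.62 ± 0.17 (SD, n = 3) in MHCIIlo, and was at least 213-fold higher in intestine than in kidney (limma adjusted p = 3.1e-09). Cdx2 averaged 4.14 ± 0.17 and 4.60 ± 0.18 (SD, n = 3 each) and was at least 1306-fold higher (limma adjusted p = 1.5e-09). Neither differed past the threshold between the gates, at 0.26 and -0.46.

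Of the retinoic acid genes 12 were tested, and 6 were higher and 3 lower in kidney, beside 27.4% and 24.8% of all genes. The retinoic acid receptor Rarb was at least 29.5-fold higher and the synthesis enzyme Aldh1a3 at least 7.15-fold higher, both below background in intestine. The degrading enzyme Cyp26b1 was higher by 4.69 ± 0.48 (SE) and the synthesis enzyme Aldh1a1 lower by -3.51 ± 0.25 (SE), each with a limma adjusted p of at most 2.5e-05. Between the gates 0 were higher and 3 lower in MHCIIhi (8 lower at an unadjusted p below 0.05 in limma), beside 14.9% and 16.1% of all genes. Among the 3, Aldh1a2 passed the background test on 1 of 3 MHCIIhi arrays and was at least 6.91-fold lower there, from an MHCIIlo mean of -2.13 ± 1.78 (SD, n = 3).

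The partners of Hox proteins were mixed. Of 9 Pbx, Meis and Pknox genes, 4 were higher and 3 lower in kidney, beside the background shares given above. Meis2 was higher by 5.64 ± 0.41 and Pbx3 by 2.15 ± 0.16 (SE), and Meis1, which passed on 1 of 6 intestinal arrays, was at least 1.19-fold higher, with limma adjusted p of at most 0.021. Meis3, Pknox2 and Pbx4 were lower by 1.17 to 1.76 in size. Between the gates Pbx3 was higher in MHCIIhi by 1.20 ± 0.19 (SE) and Pknox2 and Pbx4 lower. Of 9 genes tested that are known to work with Hox genes in kidney formation, 5 were higher in kidney and 0 lower, beside 27.4% and 24.8% of all genes. Lhx1 was higher by 4.50 ± 0.19 (SE). Wt1, which passed on 1 of 6 intestinal arrays, was at least 9.08-fold higher. Against MHCIIlo alone 3 of these 9 genes were higher in kidney and 2 lower, beside 29.8% and 27.8% of all genes. Between the gates 0 of the 9 were higher and 4 lower in MHCIIhi, beside 14.9% and 16.1% (7 lower at an unadjusted p below 0.05 in limma).

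The chromatin regulators of the clusters were read against the same shares of all genes, 27.4% higher and 24.8% lower in kidney and 14.9% higher and 16.1% lower in MHCIIhi. For Polycomb complex 1, which compacts silenced chromatin, 5 of 10 genes were higher in kidney and 1 lower, with Phc1 at 2.92 ± 0.23, Cbx7 at 2.27 ± 0.24, Bmi1 at 2.06 ± 0.24 and Cbx8 at -2.05 ± 0.24 (SE). For Polycomb complex 2, which methylates histone H3 at lysine 27, 1 of 11 was higher and 2 lower in kidney. Its catalytic gene Ezh2 averaged 0.44 ± 0.33 in MHCIIhi, -1.01 ± 0.14 in MHCIIlo and -1.73 ± 0.30 in kidney (SD, n = 3 each), while the related Ezh1 was higher in kidney by 1.51 ± 0.17 (SE). Between the gates 4 Polycomb complex 2 genes were higher in MHCIIhi and 1 lower, with Ezh2 higher by 1.44 ± 0.23 (SE; limma adjusted p = 0.0019), in the same arrays in which the dividing cell markers were higher. Of 9 MLL complex genes tested, 1 was higher and 2 lower in kidney, and 3 were higher and 0 lower in MHCIIhi (2 lower at an unadjusted p below 0.05 in limma). Kmt2a was not analysed here. Of 2 enzymes tested that remove the Polycomb mark, Kdm6b was lower in kidney by -2.01 ± 0.17 (SE).

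Genes that flank the clusters were read for comparison. Of 12 tested, 5 were higher and 2 lower in kidney, beside the same shares of all genes. Hibadh, beside the Hoxa cluster, was higher by 2.15 ± 0.16 (SE) and Calcoco1, beside Hoxc, was at least 7.48-fold higher. Evx2, a homeobox gene next to Hoxd13, was lower by -2.11 ± 0.32 (SE) and Ttll6, near Hoxb13, by -2.13 ± 0.22 (SE). Between the gates 4 were higher in MHCIIhi, among them Cbx5 and Hnrnpa1 beside Hoxc at 2.25 ± 0.27 and 2.17 ± 0.29 (SE), and 0 were lower (1 at an unadjusted p below 0.05 in limma).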

How the data were processed

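The RNA of the 9 pools was labelled with Cy3 and hybridised to 1-colour arrays. Scans were quantified in version 10.5.1.1 of Agilent's Feature Extraction software (file headers). The deposited values are intensity on a linear scale, background-subtracted by the scanner software per the file headers, and not normalized between arrays. The authors' value table also holds intensity, and matched these signals divided by each array's median. Probe positions are on mm8, per the file headers; names came from a RefSeq table of GRCm38.p6, which matched 24375 of 41174 probes.

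Spots of a probe were averaged. The 75th percentile of each array was subtracted from its log2 processed signals. The filter kept a gene if some group had its probe well above background on each of its 3 arrays, leaving 19993. One model over 9 arrays was fitted with limma 3.58.1 (lmFit, eBayes) in R 4.3.3, with group as the factor and Benjamini-Hochberg adjustment over all genes kept. Genes were called at an adjusted p below 0.05 and a log2 difference of at least 1. The code was tested on simulated data. Sequences were read with Biopython 1.88 and figures drawn with matplotlib 3.10.9.

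The members and gene lists were chosen with earlier results of these data known. Members were named with values where seen on 3 arrays of a group; from each list up to 4 called genes with the largest differences were eligible, plus Cdx1, Cdx2, Meis1 and Ezh2. Results of some genes and probes are counted but not reported here. Per the labels, each replicate was an independent pool of mice. Same-numbered MHCIIhi and MHCIIlo arrays had deviations that correlated at 0.19, -0.35 and 0.28, so the numbers were not taken to pair them.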

Additional observations from a re-analysis of the deposited data

How the results depend on the processing

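The count of 26 members higher in kidney than in the intestinal mean was 26 with each array left out in turn, with quantile scaling and with the replicate number as a block, and 19 with normexp (median of all genes -0.47). With a filter requiring all 9 arrays 9 members were higher in kidney than in the intestinal mean, MHCIIhi or MHCIIlo, since 11 were then tested. With no filter on dim probes 5, 3 and 6 members were lower in these comparisons. Against MHCIIlo, normexp gave 17 higher and 2 lower, quantile scaling 1 lower, no size threshold 1 lower, and leaving out an array 0 to 1 lower. Reversed values were -0.021 for Hoxa2, -0.28 for Hoxa4 and -0.80 for Hoxc8 with normexp, and 3.09 for Hoxa3 with the other probe. Hoxc5, not called with either correction, was -0.93 with normexp against 0.56. The bounds were computed on the processed signal alone, and with normexp several differences were smaller than their bounds. For MHCIIhi minus MHCIIlo, the 4 members higher became 3 with slide as a random block (Hoxb6 lost), 0 with it as a fixed block and 2 to 5 with an array left out. The 6 lower became 2 with quantile scaling, 1 with normexp, 2 with the filter requiring all 9 arrays, 0 with slide as a random or fixed block, 0 at an adjusted p below 0.01, 2 with the filter on the groups compared (added after seeing the data) and 0 to 12 with an array left out. The replicate block gave 4 higher and 4 lower. Hoxb6 was -0.00011 with the mean of its probes and -1.12 with the other probe, and Hoxd4 -0.44 with normexp (median of all genes -0.50). The cause of these changes was not tested, except where fewer or more genes were tested. Signal over background limits the dim members, most in MHCIIlo, and 3 arrays a group limit the precision.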
